A study of Nicotiana tabacum with 12 samples.

Results

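Leaf RNA of tobacco line P9.10a, which carries NtYb1 (NtEGY2) behind the 35S promoter, was compared with leaf RNA of untransformed plants of the same cultivar. The comparison takes the 3 libraries of P9.10a and the 3 libraries of the untransformed control, called CK in the labels and "Wild type" in the genotype field, which are 6 of the 12 libraries of the series, and it covers every gene of the count table. Both groups are burley tobacco, Nicotiana tabacum cultivar TN90. P9.10a plants were green-stemmed segregants from a primary transformant, so the line stands for the progeny of 1 transformation event, and an effect of NtYb1 cannot be told apart from an effect of where the construct inserted. Both groups grew in a field at Oxford, North Carolina, and leaves near the top of the plant were frozen before they matured. Lines P2.4a and P3.9a carry the same construct, with 3 libraries each, and are used here where P9.10a is set against other transformants.

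EGY proteins are zinc metalloproteases that sit within chloroplast membranes, and in Arabidopsis their loss disturbs chloroplast development. Burley tobacco is pale because it carries recessive alleles at the Yb loci, which lower the chlorophyll of stem and leaf. Burley types are also known for using nitrogen less efficiently and for holding more nitrate in the leaf than flue-cured types. The series asks which pathways of carbon and nitrogen metabolism differ between engineered and wild-type plants of this background.

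The P9.10a libraries held 16061258, 15215262 and 13536964 counts, and the CK libraries held 16657112, 18444571 and 16743222 counts. The leaf label was matched by the 14 tested genes of the photosystems and light harvesting, which summed to 15000 to 20400 CPM (counts scaled to library size) in P9.10a and 16600 to 19700 CPM in CK. The root gene TobRB7 stayed between 0.472 and 1.93 CPM in P9.10a and between 0.737 and 1.22 CPM in CK. Not every root marker was that low: QPT2A held 52.2, 55.5 and 58.4 CPM in P9.10a, against 63.3, 67.4 and 76.7 CPM in CK. No identifier carries an EGY or Yb symbol in the reference table, so the transgene was not identified and the line label was not checked against it. All CPM values are scaled by TMM, a factor that corrects each library for its composition. On the first principal component of the 6 libraries, which held 35.6% of the variance, P9.10a lay at 22.4, 4.18 and 44.4 and CK lay at -16.7, -10.2 and -44.2. The groups did not overlap there, but the spread within each was wider than the gap between them, and the median correlation of log2 CPM was 0.98 within groups and 0.978 between groups. P9.10a replicate 3 stood farthest from its own group, with a median absolute log2 difference of 0.213, against 0.152 to 0.18 for the other 5 libraries.

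Few genes differed between P9.10a and CK leaves beyond the spread of the libraries. Of 38222 genes tested, 16 passed an adjusted p of 0.05 in edgeR's quasi-likelihood test with Benjamini-Hochberg adjustment over all genes, which is 0.0419% of those tested. Of the 16, 7 were higher in P9.10a (0.0183% of genes tested) and 9 were lower (0.0235%). None of the 16 has a symbol in the reference table, so no role can be given for them. There 15 of the 16 are listed as protein-coding, and LOC107773975 has no entry. Without adjustment, 1535 genes had p under 0.05 and were higher in P9.10a (4.02%), and 1965 were lower (5.14%). These 3500 genes compare with 1911.1 that a threshold of 0.05 gives by chance among independent genes. The median log2 fold change over all tested genes was 0.01, and 235 genes were at least 2-fold higher and 322 at least 2-fold lower in the fit. The count of called genes moved with the libraries and the tool: it was 126 without CK replicate 2, 50, 43 and 32 without P9.10a replicates 1, 2 and 3, 364 with DESeq2, and 5 when all 12 libraries of the series shared the fit, of which 3 were among the 16. Leaving out a library also cost calls among the 16: LOC107785603 had an adjusted p of 0.0749 without CK replicate 1 and 0.141 without CK replicate 3. In all 6 fits that left out a library, the 16 genes kept the sign of their change. With groups apart in each of the 16, this was near certain in advance and says nothing on how stable the calls are.

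**Figure D1:**
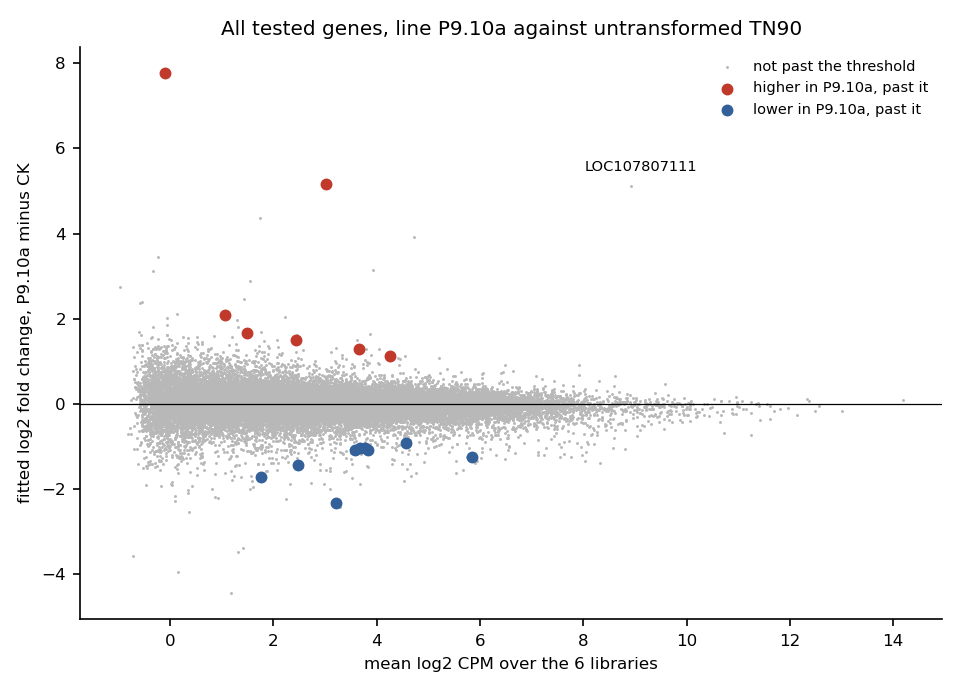
Fitted log2 fold change of P9.10a minus CK (vertical axis) against mean log2 CPM over the 6 libraries (horizontal axis) for all 38222 genes tested. Red points are the 7 genes past an adjusted p of 0.05 and higher in P9.10a, blue points the 9 that were lower, and grey points all other genes; LOC107807111, the grey point marked by name, reached 5.12 without passing.

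LOC107781375 rose the most among called genes expressed above a mean of 2 CPM. Its P9.10a libraries held 15.2, 15 and 17.9 CPM, against 0.123, 0.333 and 0.901 CPM in CK. The 3 P9.10a libraries were close together, and each was more than 10-fold above the highest CK library. The fitted difference was 5.16 on the log2 scale (standard error (SE) 0.32, adjusted p 2.25e-05), a 35.7-fold higher level. LOC107773975 was not counted at all in CK, with 0 counts in each of the 3 libraries, against 28, 24 and 25 counts in P9.10a. Set against the limit that 3 counts over the CK group allow, 0.0602 CPM, its pooled level of 1.71 CPM in P9.10a was at least 28.4-fold higher (adjusted p 0.00746). Its mean level is below the limit used for naming genes, and it has no entry in the reference table.

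The other 5 genes that rose did so by 2.18-fold to 4.24-fold. LOC107785603 had 3.48, 2.52 and 3.93 CPM in P9.10a, against 0.737, 1.05 and 0.515 CPM in CK, a log2 difference of 2.08 (SE 0.33, adjusted p 0.0407). LOC107790992 had 4.07, 3.65 and 4.85 CPM in P9.10a, against 1.47, 1.39 and 1.09 CPM in CK, a log2 difference of 1.66 (SE 0.25, adjusted p 0.029). Both are lowly expressed genes whose groups stood apart, and both calls depended on single libraries. LOC107785603 passed in 2 of 6 fits that left out a library, with an adjusted p of 0.141 without CK replicate 3, 0.0749 without CK replicate 1, and 0.0606 and 0.0574 without P9.10a replicates 1 and 3. LOC107790992 passed in 3 of 6, with 0.108 without CK replicate 3, 0.0604 without CK replicate 1 and 0.0549 without P9.10a replicate 3. LOC107775051 had 7.84, 8.43 and 7.93 CPM in P9.10a, against 2.58, 2.66 and 3.35 CPM in CK, and rose by a log2 difference of 1.5 (SE 0.18, adjusted p 0.00746). LOC107786896 had 21.2, 16.2 and 17.2 CPM in P9.10a, against 8.29, 6.88 and 7.21 CPM in CK, and rose by 1.30 (SE 0.15, adjusted p 0.00705). LOC107786896 passed under all 16 alternative settings. LOC107782016 rose by 1.12 (SE 0.17, adjusted p 0.0261), with 20.2, 28.7 and 30.4 CPM in P9.10a, against 11.6, 10.7 and 14.3 CPM in CK. Its P9.10a replicate 1 was the lowest of that group, and this library lay above its highest CK library. Its adjusted p was 0.0749 without CK replicate 1 and 0.0604 without P9.10a replicate 2.

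The gene that fell the most was LOC107772409, with 1.53, 4.32 and 3.47 CPM in P9.10a, against 15.8, 15 and 15.6 CPM in CK. The CK libraries were within 1 CPM of each other and every P9.10a library was far below them. The log2 difference was -2.33 (SE 0.26, adjusted p 0.00834), so its CK level was 5.01-fold higher, and it passed under all 16 alternative settings. LOC107786996 had 1.71, 1.13 and 1.69 CPM in P9.10a, against 6.08, 4.33 and 4.70 CPM in CK, and fell by 1.72 (SE 0.25, adjusted p 0.0235). LOC107785552 had 3.66, 2.99 and 2.08 CPM in P9.10a, against 9.03, 7.38 and 7.72 CPM in CK, and fell by 1.44 (SE 0.21, adjusted p 0.0235). The most abundant called gene was LOC107783543, with 27.4, 45.9 and 30.2 CPM in P9.10a, against 71.1, 84.6 and 90.3 CPM in CK, and it fell by 1.24 (SE 0.18, adjusted p 0.029). Its P9.10a replicate 2 was the highest of that group and still well below each CK library. Without CK replicate 3 or P9.10a replicate 3 the adjusted p of LOC107783543 was 0.131 and 0.0808. LOC107785552 had 0.0696 and 0.0701 without CK replicates 1 and 3, and LOC107786996 had 0.0696 and 0.065 without them and 0.0561 without P9.10a replicate 2.

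The remaining 5 falls were close in size, between 0.91 and 1.08 on the log2 scale. LOC107800858 had 9.37, 8.37 and 10.2 CPM in P9.10a, against 20.9, 19.6 and 18.3 CPM in CK (log2 difference -1.07, SE 0.13, adjusted p 0.00746). It passed under all 16 alternative settings, as did LOC107772409 and LOC107786896 and no other gene of the 16. LOC107813114 had 7.61, 8.97 and 6.39 CPM in P9.10a, against 16.3, 15.8 and 17.0 CPM in CK (log2 difference -1.08, SE 0.15, adjusted p 0.0124). LOC107816203 had 8.08, 9.63 and 9.17 CPM in P9.10a, against 17.3, 18.1 and 20.1 CPM in CK (log2 difference -1.04, SE 0.13, adjusted p 0.00834). In these 3 genes the CK level was about 2.1-fold higher and no P9.10a library reached a CK library. LOC107778391 had 9.08, 8.90 and 7.16 CPM in P9.10a, against 18.9, 15.8 and 17.6 CPM in CK (log2 difference -1.04, SE 0.14, adjusted p 0.0124). LOC107811683 had 17.8, 15.7 and 16.2 CPM in P9.10a, against 34.2, 26.2 and 33.5 CPM in CK (log2 difference -0.91, SE 0.13, adjusted p 0.0235). It was the smallest change to pass, and CK replicate 2 was the CK library nearest to P9.10a. Its adjusted p was 0.0696 and 0.1 without CK replicates 1 and 3 and 0.0661 without P9.10a replicate 2. Without CK replicate 3 LOC107813114 and LOC107778391 each had an adjusted p of 0.0558.

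**Figure D2:**
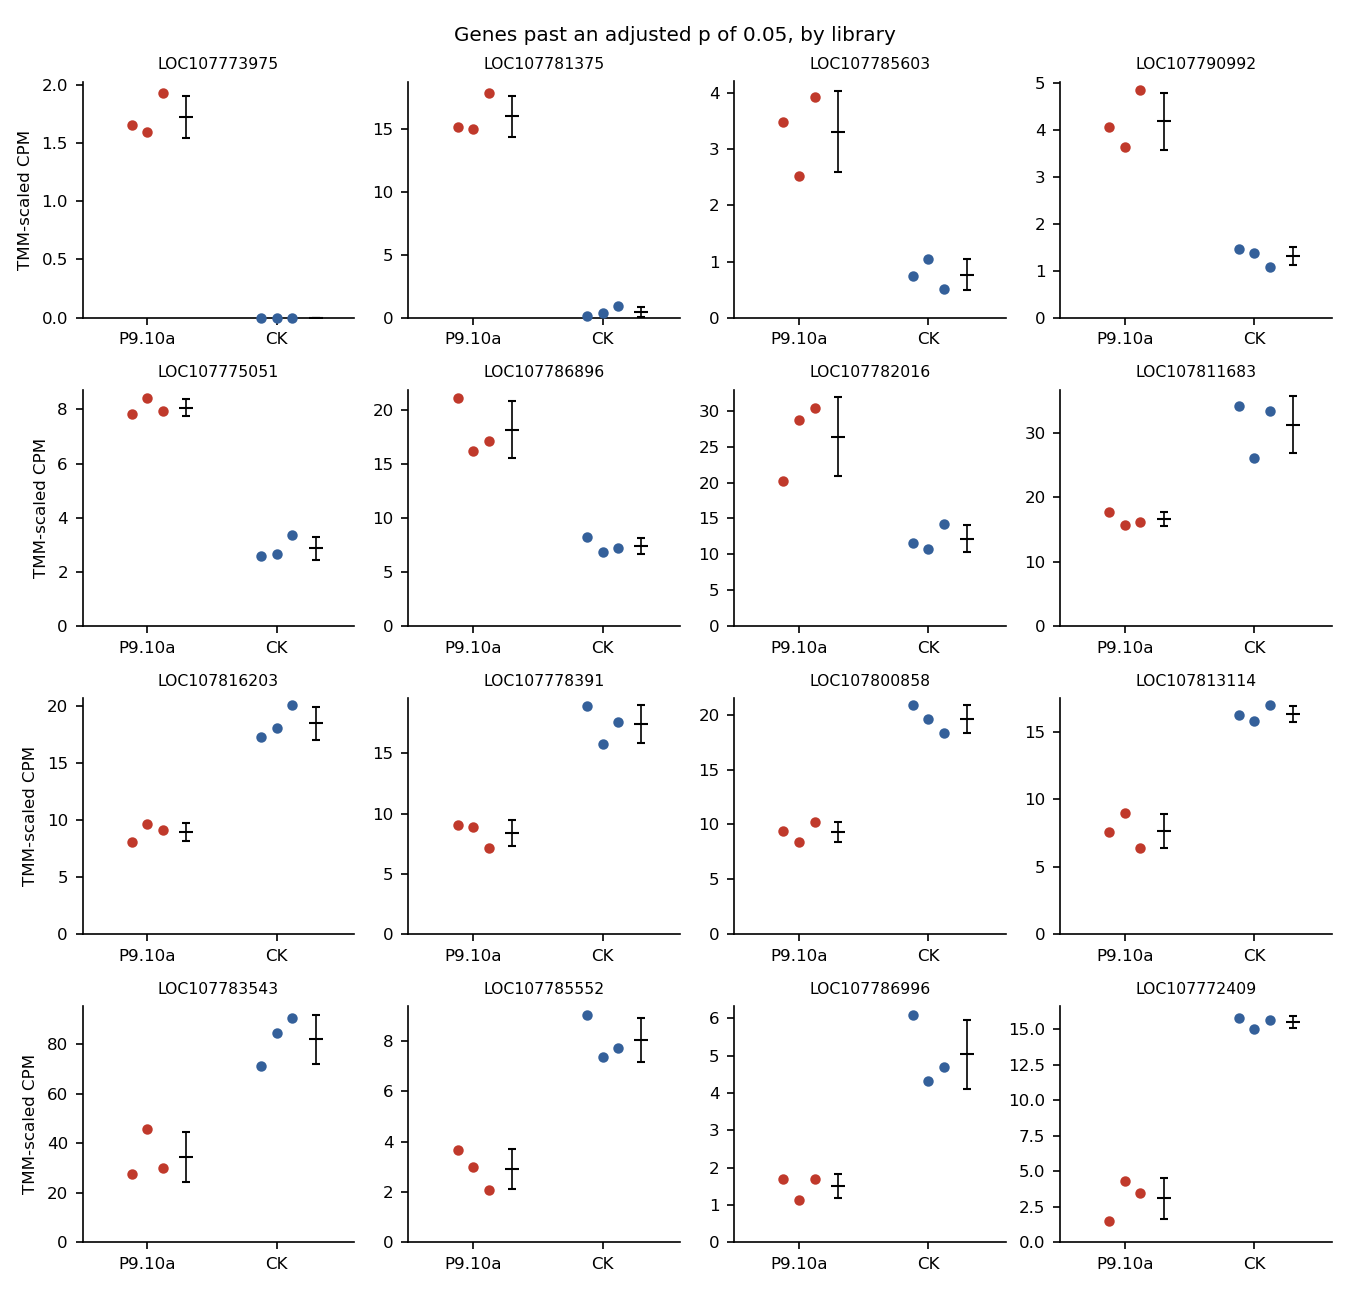
TMM-scaled CPM (vertical axes, each from 0) of the 16 genes past an adjusted p of 0.05 in each P9.10a library (red, left) and each CK library (blue, right); black marks give the mean and SD of 3 libraries. Genes run from the largest rise, LOC107773975, to the largest fall, LOC107772409, and the groups are apart in every panel.

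The called genes did not lie beside one another. In the gene order of the reference assembly, ASM71507v2 of cultivar K326, 14 of the 16 could be placed on chromosomes, and none of them was the nearest tested neighbour of another called gene. None of the 28 flanking genes passed the test. Their median absolute log2 fold change was 0.22, against 0.15 over all tested genes.

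Some genes had a large fitted difference and did not pass, and most of them were uneven within a group. Among genes of the same mean level that were not called, 7 had a fitted difference of 8-fold or more, of which 4 were higher and 3 lower in P9.10a. These 7 were picked out after their values were seen. LOC107807111 was the most abundant of them, with 349, 1220 and 1320 CPM in P9.10a, against 27.4, 29.8 and 26.5 CPM in CK. Its lowest P9.10a library was more than 10-fold above every CK library, while the P9.10a libraries spanned nearly 4-fold. The fitted log2 difference was 5.12 (SE 0.57, adjusted p 0.0829 in edgeR). With P9.10a replicate 1 left out the difference was 5.52 with an adjusted p of 1.33e-10, and DESeq2 gave an adjusted p of 1.21e-15 on all 6 libraries. Without CK replicate 2 it also passed, at 0.0414. The same gene held 703, 93.7 and 170 CPM in P2.4a and 51.3, 1090 and 62.7 CPM in P3.9a. Every one of the 9 transgenic libraries thus lay above every CK library, and the level varied more than 7-fold within P2.4a and more than 20-fold within P3.9a. The reference table gives LOC107807111 no symbol and lists it as protein-coding. Whether it is the NtYb1 gene, so that its counts would hold reads of the transgene itself, was not tested.

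Of the other 3 large differences above CK, LOC107786452 had 40.0, 41.0 and 70.5 CPM in P9.10a, against 2.89, 1.05 and 6.31 CPM in CK (log2 difference 3.92, SE 0.62, adjusted p 0.165). LOC107772029 had 10.2, 4.25 and 4.31 CPM in P9.10a, against 0, 0.333 and 0.579 CPM in CK (log2 difference 4.36, SE 0.65, adjusted p 0.0829). In both genes the groups were apart, and DESeq2 gave adjusted p values of 4.67e-05 and 0.00585. LOC107786452 passed in edgeR without CK replicate 2, at 0.0141, and LOC107772029 without P9.10a replicate 1, at 0.0177. Of the 3 below CK, LOC107775243 had groups apart in every library, with 0, 0.996 and 0.308 CPM in P9.10a, against 5.40, 4.77 and 3.47 CPM in CK (log2 difference -3.39, SE 0.60, adjusted p 0.102). It passed without P9.10a replicate 1, at 0.016, and without P9.10a replicate 2, at 0.0102. In the 2 others the CK libraries were uneven: replicate 1 alone was high for LOC107808981, and replicates 1 and 3 for LOC107760429, whose groups overlapped. LOC107808981 had 0.118, 0.133 and 0.308 CPM in P9.10a, against 10.4, 0.999 and 0.836 CPM in CK, and LOC107760429 had 0.059, 0.664 and 0.462 CPM in P9.10a, against 8.66, 0.499 and 4.05 CPM in CK. Without CK replicate 2 LOC107760429 had a log2 difference of -4.02 with an adjusted p of 0.0126.

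Set against the mean of the other transformants P2.4a and P3.9a, in a fit of all 12 libraries whose contrast leaves CK out, P9.10a differed in 3 of 39207 genes (0.00765%). At an unadjusted p under 0.05 there were 821. LOC107805125 was the gene higher in P9.10a, with 11.7, 44.6 and 27.2 CPM in P9.10a, 3.11, 2.81 and 3.61 CPM in P2.4a and 3.03, 3.80 and 3.21 CPM in P3.9a. It was at 3.07, 3.05 and 3.28 CPM in CK, so the 9 libraries outside P9.10a lay within 1 CPM of each other. The difference from the other lines was 3.09 on the log2 scale (SE 0.30, adjusted p 0.00455). Against CK alone it was 3.15 (SE 0.57) and did not pass in the 6-library fit, with an adjusted p of 0.199, while it passed in the 12-library fit, at 0.0279, and in DESeq2, at 1.55e-05. It also passed without P9.10a replicate 1, at 1.19e-06, and without P9.10a replicate 2, at 0.0361. The call against the other lines was lost without P3.9a replicate 1, at an adjusted p of 0.0826, and in limma-voom, at 0.114.

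LOC107800858, one of the genes that fell against CK, was the called gene that also set P9.10a apart from the other transformants. P9.10a held 9.37, 8.37 and 10.2 CPM, against 19.8, 20.9 and 22.6 CPM in P2.4a and 19.4, 19.9 and 22.3 CPM in P3.9a. Every P9.10a library was below every other library of the series, and P2.4a and P3.9a lay in the range of CK or just above it. The difference from the other lines was -1.16 (SE 0.11, adjusted p 0.000379). The last of the 3 genes, LOC107811420, was set apart by P3.9a and not by P9.10a. It held 2.24, 2.13 and 2.85 CPM in P9.10a, 1.88, 2.62 and 2.34 CPM in P2.4a, 59.2, 48.9 and 80.7 CPM in P3.9a and 1.6, 2.39 and 1.93 CPM in CK. The contrast gave -2.33 (SE 0.21, adjusted p 0.000365), and P9.10a against CK gave 0.28 (SE 0.27, adjusted p 0.819).

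For the other 15 called genes no difference between P9.10a and the other lines passed, and the levels are given side by side, since all 3 lines share the CK libraries. LOC107781375 held 15.2, 15 and 17.9 CPM in P9.10a, 10.4, 1.31 and 7.54 CPM in P2.4a, 5.10, 3.42 and 12 CPM in P3.9a and 0.123, 0.333 and 0.901 CPM in CK. P9.10a was the highest and the most even of the lines. LOC107772409 held 1.53, 4.32 and 3.47 CPM in P9.10a, 2.92, 2.56 and 1.46 CPM in P2.4a, 1.1, 1.55 and 1.66 CPM in P3.9a and 15.8, 15 and 15.6 CPM in CK. Here P9.10a held the highest transgenic libraries, and all 9 were below CK. LOC107773975 had 1.65, 1.59 and 1.93 CPM in P9.10a, 2.01, 2.50 and 0.253 CPM in P2.4a and 0.775, 1.22 and 1.03 CPM in P3.9a, and was at 0 in CK.

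**Figure D3:**
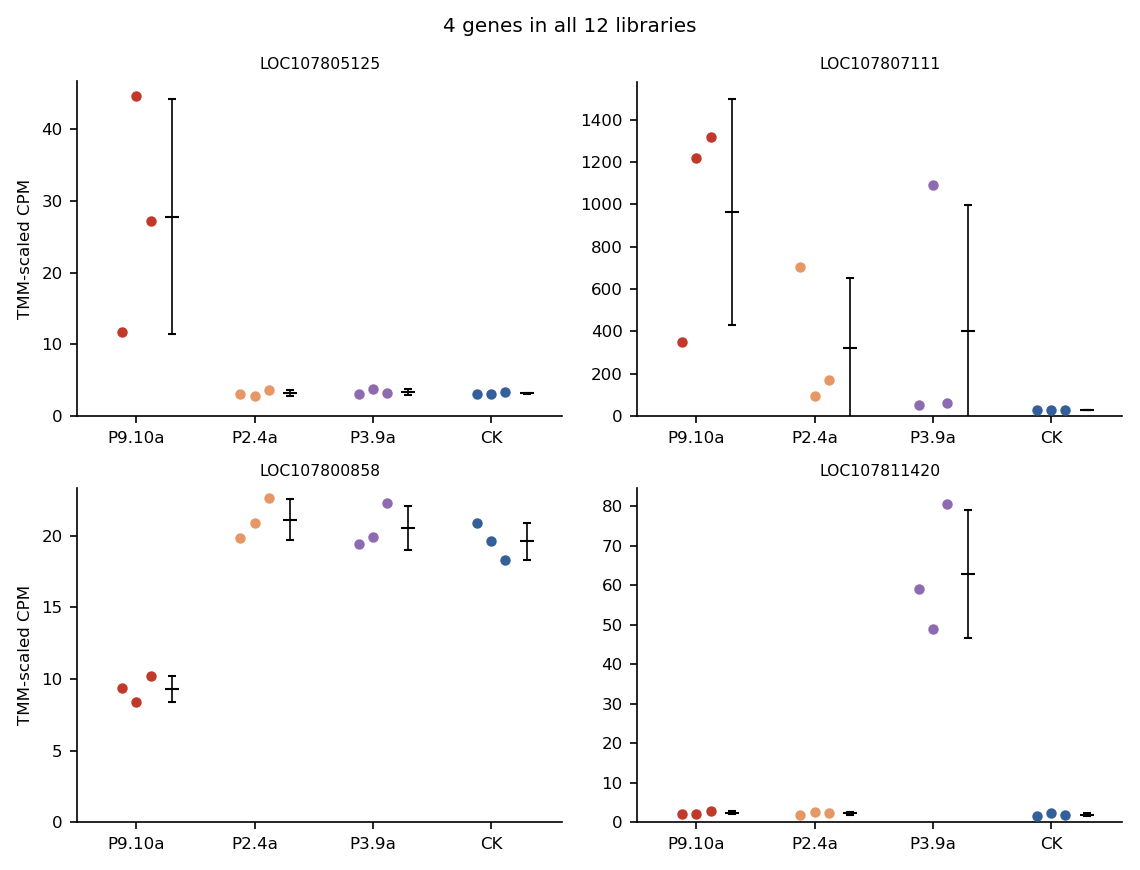
TMM-scaled CPM (vertical axes, each from 0) of 4 genes in the 3 libraries of P9.10a, P2.4a, P3.9a and CK; black marks give the mean and SD, with the bar cut at 0 where the SD exceeds the mean. LOC107805125 is high in P9.10a alone, LOC107807111 is high and uneven in all 3 lines, LOC107800858 is low in P9.10a alone and LOC107811420 is high in P3.9a alone.

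Genes with a symbol, from which a function can be read, made up 900 of the genes tested (2.35%). None of the 900 passed in edgeR's test or in limma-voom, while 23 passed in DESeq2, 7 higher and 16 lower in P9.10a. The calls of DESeq2 over all genes leaned to the lower side too, by counts given further below. Neither the 23 nor their split is therefore read as a trait of genes with a symbol. At an unadjusted p under 0.05 there were 51 higher and 89 lower of the 900, beside 4.02% and 5.14% of all tested genes. The 10 symbol genes with the smallest p are given here as values that did not pass, and in all 10 the groups were apart. Groups apart is a frequent outcome: all 3 P9.10a libraries were above all 3 CK libraries in 6.47% of tested genes and below them in 7.79%. With CPM scaled by library totals alone the split turned to 9.66% above and 4.97% below.

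Of the 10, 8 lay below CK. NCED3 LOC107827644, which makes the enzyme of the committed step of abscisic acid synthesis, had 14.7, 12.9 and 10.2 CPM in P9.10a, against 19.9, 23.6 and 25.7 CPM in CK (log2 difference -0.86, SE 0.15, adjusted p 0.0628). ADC1A, an arginine decarboxylase that begins polyamine synthesis, had 188, 209 and 200 CPM in P9.10a, against 299, 335 and 347 CPM in CK (log2 difference -0.71, SE 0.14, adjusted p 0.0861). SUT1, a sucrose transporter of the phloem, had 95.8, 105 and 86.0 CPM in P9.10a, against 138, 141 and 160 CPM in CK (log2 difference -0.60, SE 0.14, adjusted p 0.125). In all 3 genes the highest P9.10a library lay below the lowest CK library, with the widest gap relative to the spread in ADC1A. The gene hqt, whose enzyme makes chlorogenic acid, the main soluble phenolic of tobacco leaf, had 79.9, 49.9 and 63.2 CPM in P9.10a, against 97.0, 160 and 124 CPM in CK (log2 difference -0.98, SE 0.20, adjusted p 0.111). NtERF#193, an ethylene response factor, had 8.31, 8.24 and 5.31 CPM in P9.10a, against 13.9, 12.7 and 19.6 CPM in CK (log2 difference -1.06, SE 0.20, adjusted p 0.0829). In both, the CK libraries spread more widely in CPM than the P9.10a libraries, at a higher mean level. NtPP2C2, a protein phosphatase gene, had 63.5, 69.7 and 49.4 CPM in P9.10a, against 96.3, 92.3 and 114 CPM in CK (log2 difference -0.72, adjusted p 0.105). HD LOC107765920 had a log2 difference of -1.04 (adjusted p 0.0879) and psi14B one of -1.58 (adjusted p 0.0829), and no role is stated for them here. Leaving out 1 library brought 4 of these genes past the threshold: NCED3 LOC107827644 without P9.10a replicate 1 (adjusted p 0.0338), HD LOC107765920 without P9.10a replicate 3 (0.0166), and NtERF#193 and psi14B without CK replicate 2 (0.0419 and 0.00987).

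Above CK, the diterpene gene NtABS had 98.6, 114 and 110 CPM in P9.10a, against 68.9, 62.4 and 64.9 CPM in CK. It makes abienol synthase of the glandular trichomes, and the lowest P9.10a library was well above the highest CK library. The log2 difference was 0.73 (SE 0.13, adjusted p 0.0658), and it passed in DESeq2, where the adjusted p was 3.62e-05, and in edgeR without P9.10a replicate 1 (0.0407) or replicate 3 (0.0417). NtABS is the only gene of the trichome list used here, which was drawn up by symbol. The trichome markers CBTS, CYP71D16, NtLTP1 and T-phylloplanin were also named in the design. They are not in that list, and no values are given under those names. Trichome number and transcript per trichome cannot be told apart, as with any cell type in whole-leaf RNA. BIP3, a chaperone of the endoplasmic reticulum (ER), had 37.6, 35.1 and 48.1 CPM in P9.10a, against 28.2, 27.0 and 22.8 CPM in CK (log2 difference 0.64, SE 0.14, adjusted p 0.122).

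**Figure D4:**
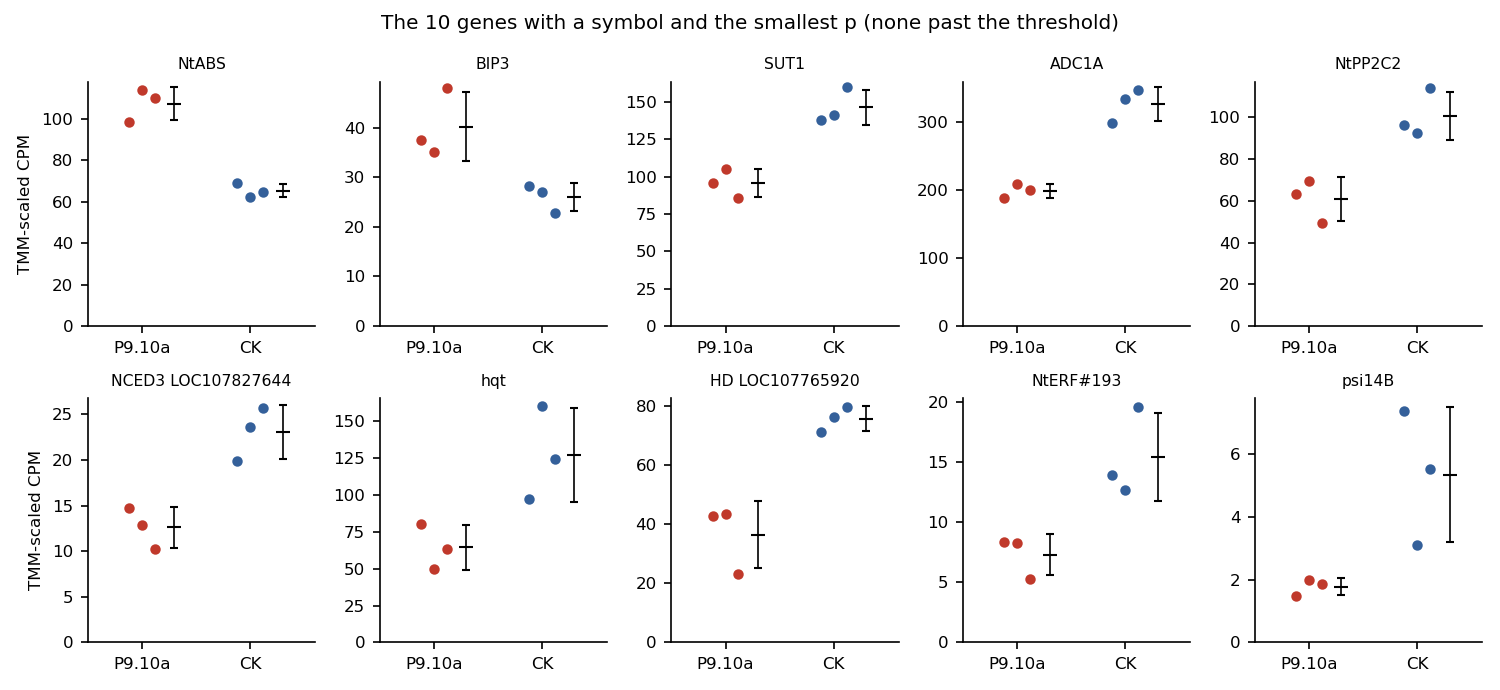
TMM-scaled CPM (vertical axes, each from 0) in each P9.10a library (red, left) and CK library (blue, right) of the 10 genes with a symbol and the smallest p; black marks give the mean and SD of 3 libraries. NtABS and BIP3 are higher in P9.10a and the other 8 are lower, with groups apart in every panel and none past an adjusted p of 0.05.

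Gene lists of pathways and cell types held 275 tested genes in 28 lists, of which 0 passed in edgeR, 13 passed in DESeq2, and 22 were higher and 33 lower at an unadjusted p under 0.05. Over all tested genes 4.02% were higher and 5.14% lower at that unadjusted p. The count that DESeq2 called over all genes is given above, and the 13 are not read as a result about the lists. The lists are described by their counts and medians, beside a median of 0.01 and 48.1% of genes below 0 over all tested genes. Members of a list are not independent of each other, and burley tobacco, an allotetraploid, carries near-identical copies of many of them.

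**Figure D5:**
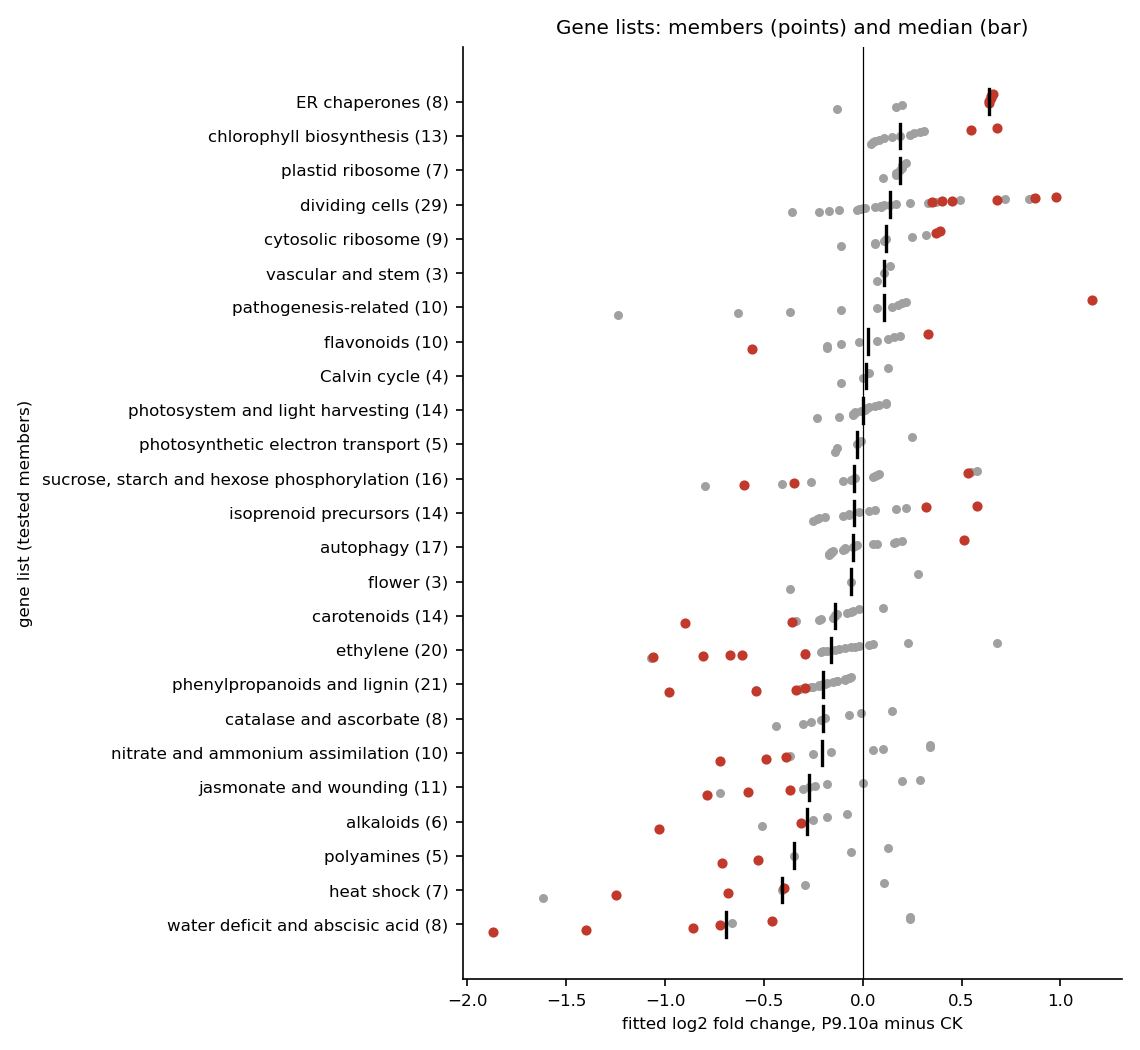
Fitted log2 fold change of P9.10a minus CK (horizontal axis) for each tested member (points) of the gene lists with 3 or more tested members, with the list median as a black bar; red points have an unadjusted p under 0.05, and none passes after adjustment. Medians run from -0.69 for water deficit and abscisic acid to 0.64 for the ER chaperones.

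Genes of photosynthesis were at nearly the same level in both groups. The 14 genes of the photosystems and light harvesting had a median log2 difference of 0.00, between -0.23 and 0.12, and none had an unadjusted p under 0.05. The lowest was psbS, which dissipates excess light energy, with 1660, 1890 and 2000 CPM in P9.10a, against 1890, 2200 and 2480 CPM in CK (log2 difference -0.23, SE 0.17, adjusted p 0.736). Calvin cycle genes had a median of 0.01 over 4 genes, and photosynthetic electron transport a median of -0.03 over 5. The libraries of P9.10a differed among themselves here more than the groups did. Relative to the CK mean, the Calvin cycle list had medians of -0.38, -0.02 and 0.30 in P9.10a replicates 1, 2 and 3, and -0.14, 0.07 and 0.06 in the CK libraries. The light-harvesting list had -0.25, 0.04 and 0.18 in P9.10a, against -0.15, 0.01 and 0.11 in CK. Replicate 1 of P9.10a was thus the lowest of the 6 libraries and replicate 3 the highest. Rca LOC107819807, the activase of Rubisco, followed that order, with 1590, 2070 and 2750 CPM in P9.10a, against 2120, 2420 and 2420 CPM in CK (log2 difference -0.11, SE 0.20, adjusted p 0.924).

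Chlorophyll synthesis genes lay slightly above CK. All 13 tested had a positive difference, with a median of 0.19 and 2 at an unadjusted p under 0.05. POR1, a protochlorophyllide reductase of the light-dependent step, had 24.5, 19.8 and 16.9 CPM in P9.10a, against 14.7, 13.3 and 10.6 CPM in CK (log2 difference 0.68, SE 0.16, adjusted p 0.133, and 0.0482 in DESeq2). GluTRBP1, a partner of the first enzyme of the pathway, had 22.6, 20.9 and 34.0 CPM in P9.10a, against 14.4, 19.8 and 18.9 CPM in CK (log2 difference 0.55, SE 0.19, adjusted p 0.356). Both genes had groups apart, narrowly so for GluTRBP1, whose highest library was P9.10a replicate 3. Without that library the list median was 0.05. The 7 plastid ribosome genes were all positive too, with a median of 0.19, and moved with the same library: their list medians were -0.07, 0.12 and 0.46 in P9.10a, against -0.11, 0.07 and 0.11 in CK. Carotenoid genes lay below CK in 13 of 14, with a median of -0.14. CCD1 and CCD4 LOC107791323, which cleave carotenoids, were the lowest of them by p. CCD1 had 220, 243 and 207 CPM in P9.10a, against 257, 281 and 326 CPM in CK (log2 difference -0.36, adjusted p 0.472).

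Genes of nitrate and ammonium assimilation had a median of -0.20 over 10 tested, with 3 lower at an unadjusted p under 0.05. NIA1, a nitrate reductase, had 433, 525 and 470 CPM in P9.10a, against 789, 523 and 703 CPM in CK (log2 difference -0.49, SE 0.17, adjusted p 0.373). NIA2, another nitrate reductase gene, had 371, 419 and 420 CPM in P9.10a, against 654, 402 and 514 CPM in CK (log2 difference -0.37, SE 0.18, adjusted p 0.565). For both, CK replicate 2 lay within the P9.10a range and the other CK libraries lay above it. The nitrate transporter NtNRT1.1-t had 10.3, 11.5 and 9.63 CPM in P9.10a, against 11.9, 13.3 and 16.3 CPM in CK (log2 difference -0.39, SE 0.15, adjusted p 0.409). The gdh1 gene of glutamate dehydrogenase had a difference of -0.72 (SE 0.29, adjusted p 0.47), with overlapping groups. Without CK replicate 1 the list median was -0.05. Nitrite reductase genes nir-2 and nii4 were at 0.34 and 0.05, and the glutamine synthetase genes Gln1-5 and Gln1-3 at 0.34 and 0.10.

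Sucrose and starch genes had a median of -0.05 over 16. Beside SUT1, the list holds the sucrose phosphate synthase genes SPSC and SPSA. SPSC had 15.7, 34.1 and 43.1 CPM in P9.10a, against 46.0, 58.4 and 58.2 CPM in CK (log2 difference -0.80, SE 0.34, adjusted p 0.548), with P9.10a replicate 1 far below the rest. SPSA had 41.3, 50.2 and 37.1 CPM in P9.10a, against 60.0, 49.8 and 55.7 CPM in CK (log2 difference -0.35, SE 0.14, adjusted p 0.429). The hexokinase gene Hxk1 had 4.83, 6.77 and 5.55 CPM in P9.10a, against 3.68, 4.38 and 3.80 CPM in CK (log2 difference 0.53, SE 0.20, adjusted p 0.393).

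Genes of water deficit and abscisic acid had the lowest median of the lists with 3 or more tested genes, -0.69 over 8, with 5 at an unadjusted p under 0.05, all lower. Another copy, NCED3 LOC107799511, had 21.0, 19.7 and 12.9 CPM in P9.10a, against 23.8, 32.2 and 33.0 CPM in CK (log2 difference -0.72, SE 0.18, adjusted p 0.174). GolS1, a galactinol synthase that begins the making of protective raffinose sugars, had 4.66, 4.25 and 3.31 CPM in P9.10a, against 14.6, 4.44 and 13.8 CPM in CK (log2 difference -1.40, SE 0.45, adjusted p 0.399). NCED3 LOC107799511 was apart, whereas GolS1 overlapped through CK replicate 2. The gene NCED3-2 was at -0.66 (SE 0.55, adjusted p 0.787) with overlapping groups. GolS was apart at a very low level, with 0.531, 0.332 and 0.231 CPM in P9.10a, against 0.675, 0.999 and 2.57 CPM in CK. Its log2 difference was -1.87 (SE 0.56, adjusted p 0.264). P5CS, of proline synthesis, and ABF1, an abscisic acid response factor, were both at 0.24. The list medians by library were -0.55, -0.63 and -1.04 in P9.10a, against -0.20, 0.00 and 0.16 in CK, and leaving out any library kept the list median between -0.84 and -0.60.

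Heat shock genes, 7 tested, had a median of -0.41 with 3 lower at an unadjusted p under 0.05, and CK replicate 2 again lay with P9.10a. HSP101, a chaperone that dissolves protein aggregates, had 107, 148 and 82.9 CPM in P9.10a, against 345, 145 and 315 CPM in CK (log2 difference -1.25, SE 0.34, adjusted p 0.298). NtHSF1, a heat shock factor, had 7.08, 8.63 and 7.24 CPM in P9.10a, against 15.2, 7.21 and 14.7 CPM in CK (log2 difference -0.68, SE 0.25, adjusted p 0.413). Without CK replicate 2 HSP101 was at -1.54 with an adjusted p of 0.0107 and NtHSF1 at -0.95 with an adjusted p of 0.0255. The chaperones of the ER went the other way: 7 of 8 were positive, with a median of 0.64, and 5 had an unadjusted p under 0.05. BIP8 had 38.4, 32.5 and 47.2 CPM in P9.10a, against 30.5, 23.9 and 20.9 CPM in CK (log2 difference 0.66, SE 0.16, adjusted p 0.162). BIP1, BIP2 and BIP4 were at 0.65, 0.65 and 0.64 with overlapping groups, and the ER stress factor NtbZIP60 was at -0.13. The BIP copies are close paralogs, so reads may be split among them in a way the sources do not state, and they are not separate measurements. In the other lines the ER list had medians of 0.92 in P2.4a and 0.36 in P3.9a against the same CK libraries.

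Ethylene genes had a median of -0.16 over 20, with 5 lower at an unadjusted p under 0.05. NtERF#111 had 6.72, 7.44 and 4.47 CPM in P9.10a, against 10.0, 9.16 and 13.9 CPM in CK (log2 difference -0.81, SE 0.20, adjusted p 0.165). The receptor genes ETR1 and ERS were at -0.09 and 0.23. Jasmonate and wounding genes had a median of -0.27 over 11, with 3 lower. KED, a wound-induced gene of tobacco, had 14.4, 21.7 and 17.5 CPM in P9.10a, against 25.5, 26.3 and 41.4 CPM in CK (log2 difference -0.79, SE 0.20, adjusted p 0.201). OPR1, an oxophytodienoate reductase, was at -0.37 with an adjusted p of 0.375, and the repressor gene NtJAZ2 was at 0.20. Pathogenesis-related genes had no common direction, with a median of 0.11 over 10. The thaumatin-like TLP1 had 11.3, 27.7 and 23.3 CPM in P9.10a, against 5.89, 9.38 and 12.7 CPM in CK (log2 difference 1.16, SE 0.41, adjusted p 0.479), and PR-1B had 1.36, 2.86 and 3.70 CPM in P9.10a, against 11.9, 4.00 and 2.64 CPM in CK (log2 difference -1.24, SE 0.69, adjusted p 0.674).

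All 21 tested phenylpropanoid and lignin genes lay below CK, by a median of -0.20, with 4 lower at an unadjusted p under 0.05 and 8 with groups apart. Over all tested genes, 5.14% were lower at that unadjusted p and 7.79% had groups apart on the lower side. Beside hqt, CAD14, a cinnamyl alcohol dehydrogenase gene, had 69.0, 83.3 and 67.6 CPM in P9.10a, against 90.8, 83.9 and 105 CPM in CK (log2 difference -0.34, SE 0.14, adjusted p 0.475). The 4 phenylalanine ammonia-lyase genes NtPAL, pal4, palA and palB were at -0.18, -0.15, -0.25 and -0.09. These are small values, and palA alone of the 4 had its groups apart. Flavonoid genes had a median of 0.03 over 10, with F3'H at -0.56 (SE 0.17, adjusted p 0.28) and JAF13b, a regulator of pigment genes, at 0.33 (SE 0.15, adjusted p 0.518). Alkaloid genes are active mainly in roots, and 6 of 25 could be tested in leaf, all below CK, with a median of -0.28. QPT2A, which feeds the nicotine pathway, had 52.2, 55.5 and 58.4 CPM in P9.10a, against 63.3, 67.4 and 76.7 CPM in CK (log2 difference -0.31, SE 0.13, adjusted p 0.46), and DAO1 had 1.30, 2.72 and 2.16 CPM in P9.10a, against 4.85, 4.05 and 3.67 CPM in CK (log2 difference -1.03, SE 0.27, adjusted p 0.183). Polyamine genes had a median of -0.35 over 5. ADC2, a second arginine decarboxylase gene, had 120, 149 and 122 CPM in P9.10a, against 178, 167 and 223 CPM in CK (log2 difference -0.53, SE 0.16, adjusted p 0.243), while the decarboxylase genes ODC and SAMDC were at -0.06 and 0.13.

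Genes of dividing cells had a median of 0.14 over 29, with 22 positive and 6 higher at an unadjusted p under 0.05. The gene annotated as cyclin had 23.6, 22 and 23.3 CPM in P9.10a, against 17.4, 16.8 and 16.4 CPM in CK (log2 difference 0.45, SE 0.11, adjusted p 0.162). CycD3.1, which promotes entry into the cell cycle, had 35.0, 26.2 and 32.2 CPM in P9.10a, against 25.7, 24.1 and 21.2 CPM in CK (log2 difference 0.40, SE 0.14, adjusted p 0.331). Summed over the list, P9.10a had 645, 538 and 546 CPM, against 582, 498 and 537 CPM in CK, so the groups overlapped. The senescence gene SEN4 had 12.7, 15.3 and 10.1 CPM in P9.10a, against 20.5, 15.8 and 22.1 CPM in CK (log2 difference -0.60, SE 0.17, adjusted p 0.21), and it was the only tested gene of that list. Whether leaf age differed between the groups was not tested.

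Lists with medians close to 0 were cytosolic ribosome (0.12 over 9), vascular and stem (0.11 over 3), isoprenoid precursors (-0.04 over 14), autophagy (-0.05 over 17) and flower (-0.06 over 3). Within them DXS, which opens the plastid route to isoprenoids, had the largest value with 30, 21.7 and 24.7 CPM in P9.10a, against 15.3, 17.3 and 18.9 CPM in CK (log2 difference 0.58, SE 0.14, adjusted p 0.141). The genes dxs LOC107818796 and dxs LOC107790348 of the same list were at 0.17 and 0.03. The first was far more abundant than DXS, with a mean of 428 CPM in P9.10a and 383 CPM in CK. ATG10, of autophagy, had 3.07, 3.12 and 2.93 CPM in P9.10a, against 1.96, 2.39 and 2.06 CPM in CK (log2 difference 0.51, SE 0.24, adjusted p 0.534). In DXS and ATG10 the groups were apart and the adjusted p did not pass. Catalase and ascorbate genes had a median of -0.20 over 8, with cat1 LOC107828252 at 858, 1120 and 1180 CPM in P9.10a, against 1250, 1300 and 1370 CPM in CK (log2 difference -0.30, SE 0.17, adjusted p 0.632).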

How the data were processed

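The values the authors deposited are raw read counts for each gene in 12 libraries. HISAT2 2.1.0, SAMtools and bedtools 2.25.0 are named in the submitters' processing notes, and a directional library kit in the labels' protocols. The genome build, annotation, counting rule and strand setting were not given in the sources used here. The labels' treatment text names a P3 plant by another number than the titles and holds wording on inoculated roots; groups follow the titles. Whether a library pools plants is not given, and p-values measure the spread between these libraries of 1 field experiment.

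The 6 libraries were compared in R 4.3.3 with edgeR 4.0.16: TMM scaling, filterByExpr with a minimum count of 10, robust quasi-likelihood fits with 4 residual degrees of freedom, and Benjamini-Hochberg adjustment at 0.05 over 38222 genes. The common biological coefficient of variation was 13.9%. An earlier fit of these data held all 12 libraries (16.4%, 8 residual degrees of freedom), including P3.9a replicate 1, which stands apart from its group; the choice of 6 was made with its effect on another line known. DESeq2 1.42.0 and limma 3.58.1 were alternatives. CPM values use TMM factors of all 12 libraries; library medians of lists use log2 (CPM + 0.5). The fit was tested on simulated data of 37843 genes: it called 25.4% of 67 genes changed 1.5-fold, 74.6% of 67 changed 2-fold and 100% of 66 changed 4-fold, with 17 false among 150 calls. That false share is above the 0.05 that the adjustment aims at. The changed genes were drawn from well-counted genes with modelled noise, so the shares called do not carry over to low or uneven genes. No pair of libraries agreed within sampling noise (chi-square over its degrees of freedom at least 5.41), and each was counted as 1 sample. That does not show that the libraries came from separate plants.

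Of 61526 identifiers, 49014 were in the reference table (ASM71507v2) and 1081 had a symbol; unmatched ones held 4.43% of counts. That table has no product names, so list members were picked by symbol. Comparison, members and lists were chosen with earlier results of these data known. The text names called genes with a mean log2 CPM of 1 or more and groups apart, those passing under every alternative, the 2 members of each list with the smallest p, the 10 symbol genes with the smallest p and the genes that set P9.10a apart from the other lines under the same limits; others were added after their values were seen.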

Additional observations from a re-analysis of the deposited data

Results flagged for a closer look

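A difference between P9.10a and the other transformants passed the test in 3 genes, in edgeR's fit of 12 libraries with Benjamini-Hochberg adjustment. LOC107800858 was lower in P9.10a than in the mean of P2.4a and P3.9a by a log2 difference of -1.16, and the value stayed between -1.23 and -1.09 and past the threshold under each of the 18 alternatives. LOC107805125 was higher in P9.10a by 3.09, and passed under 16 of 18 alternatives. LOC107811420 gave -2.33, with 2.24, 2.13 and 2.85 CPM in P9.10a, against 59.2, 48.9 and 80.7 CPM in P3.9a and 1.88, 2.62 and 2.34 CPM in P2.4a.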

How the results depend on the processing

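The count of 16 called genes (7 higher and 9 lower) became 189 (56 and 133) with no filter on low counts, 364 (101 and 263) in DESeq2, 5 (2 and 3) with all 12 libraries in 1 fit, and 37 (27 lower) with the replicate block, where TLP1 was the 1 gene with a symbol that passed (log2 difference 1.15, adjusted p 0.0304) and LOC107786452 passed too (4.02, adjusted p 0.0304). Without P3.9a replicate 1 the wider fit called 12, of which 3 were higher, and without robust squeezing 21, of which 11 were higher. Leaving out each replicate gave 14 to 126 genes, 6 to 25 of them higher and 7 to 105 lower. Median-ratio and upper-quartile scaling gave 16 each, limma-voom 13 and a minimum count of 30 gave 15. Of the 16 genes, 16 passed in DESeq2 too, 13 in limma-voom and 3 in the 12-library fit. The replicate numbers were not taken as pairs: deviations of same-numbered libraries correlated at 0.299, -0.103 and 0.0499. The 3 genes against the other lines became 6 without the filter and 11 in DESeq2. For the 82 genes followed, 8 of 1312 values changed sign, all of genes near 0 that did not pass: limma-voom gave FUL2 -0.04 and TobRB7 -0.03, and leaving out replicates gave GAPB -0.09 to 0.26, Rca LOC107819807 -0.33 to 0.07, FUL2 -0.49 to 0.70, Lhcb4 -0.02 to 0.24 and TobRB7 -0.39 to 0.58. Called genes kept their sign in 255 values, which groups apart made near certain, and lost the threshold in 49. For the counts, the cause of these moves was not tested. List medians moved beyond the spread of libraries in 6 of 447 values. Scaling shifted the median of all genes little: 0.01 with TMM, median-ratio and upper-quartile scaling, 0.00 in the 12-library fit and 0.05 with plain totals. With 3 libraries a group, changes of 1.5-fold were mostly missed in the simulation.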

Other observations

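DESeq2 is the most permissive of the tools used here, and the 23 genes with a symbol that it called, 0 of which passed in edgeR, hold members of groups described above and some outside them. Among the 16 lower in P9.10a were dnaJ, a co-chaperone gene, at a log2 difference of -1.13 (adjusted p 0.000309 in DESeq2, 0.161 in edgeR), AOX, the alternative oxidase of mitochondria, at -0.72 (0.0441 in DESeq2, 0.183 in edgeR), IPS at -0.74 (0.0018 in DESeq2, 0.169 in edgeR) and TCP4, of a family that controls leaf shape, at -0.65 (0.034 in DESeq2, 0.128 in edgeR). Among the 7 higher in P9.10a were cyclase, at 0.65 (0.00232 in DESeq2, 0.146 in edgeR), NtALS3 at 0.95 (0.00776 in DESeq2, 0.187 in edgeR) and Ntc12 at 0.82 (0.0116 in DESeq2, 0.191 in edgeR). These genes were picked after their values were seen.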
